A study of Caenorhabditis elegans with 2 samples.

Results

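The miRNA genes of Caenorhabditis elegans were examined for calls of the tagged zinc finger protein SDZ-12. They were taken from the annotation alone, as every gene of biotype miRNA on a nuclear chromosome of the Ensembl WBcel235 release, which gave 261 of 46890 genes. The rule itself used no measured value, but it was set with earlier results of these data known. By position, 152 of the 261 lay outside protein-coding genes (intergenic), 97 lay in an intron of one (67 on the strand of the host, 30 on the opposite strand) and 12 overlapped a coding gene's exon. Of the intergenic genes, 11 lay inside a longer noncoding gene on the same strand. The annotated genes were short, with a median length of 95 bp and a range from 52 to 1732 bp. For nearly all of them the annotated 5′ end was therefore that of the hairpin, and not the start of the primary transcript.

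The chromatin came from strain OP670, an unc-119(tm4063) mutant with the integrated transgene wgIs670, which holds sdz-12::TY1::EGFP::3xFLAG and a rescuing unc-119(+) copy. Larvae at L4, aged 71 hours, of both sexes and synchronised by L1 starvation after bleaching, were used whole and gave 1 group of 2 biological replicates. Fragments were precipitated through the GFP tag. The strain is 1 transgenic line and all tissues were pooled, so that the cell type behind a call cannot be told apart, and there was no second condition to compare.

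MicroRNAs are cut from hairpin precursors by the nucleases Drosha and Dicer. The mature strand, loaded on an Argonaute protein, pairs through its seed near the 5′ end with target mRNAs and lowers their output. In the worm, lin-4 and the let-7 family time the larval stages, the mir-35 and mir-51 families act in the embryo, and lsy-6 sets the identity of a taste neuron. A hairpin within an intron can be made from the host's transcript or from a promoter of its own. Binding of a transcription factor near a hairpin is usually sought in the stretch upstream of it, and the window used here reached 1000 bp upstream and 200 bp downstream of the 5′ end.

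The genes on which the results turn are best known by their mature strands. These were read from the RefSeq annotation and genome of WBcel235, and the capitals mark the seed, bases 2 to 8. The mir-51 family came first because it held the strongest call, at mir-52, and its 6 members listed share the seed ACCCGUA.
mir-52: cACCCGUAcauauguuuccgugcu
mir-53: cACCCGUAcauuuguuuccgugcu
mir-51: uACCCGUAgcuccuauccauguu
mir-54: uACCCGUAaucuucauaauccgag
mir-55: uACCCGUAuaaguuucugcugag
mir-56: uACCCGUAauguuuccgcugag
The let-7 family is shown because its members ranked differently in the replicates. The 4 below share the seed GAGGUAG.
let-7: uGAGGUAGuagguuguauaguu
mir-241: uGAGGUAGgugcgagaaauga
mir-48: uGAGGUAGgcucaguagaugcga
mir-84: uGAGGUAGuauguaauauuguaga
Of the other genes with a strong call, mir-2214, mir-4936, mir-5549 and mir-8192 each had seeds held by no other gene among the 227 miRNA genes compared (the 33 genes of another chromosome were not compared, also for the seeds above), whereas mir-86 shared its 5′-arm seed with mir-785, and mir-34 its own with mir-4933. The strand from the 5′ side of the hairpin is given for each of them, except for mir-4936, for which the 3′ side is annotated.
mir-2214: aUUCGGUCcggagucaauggg
mir-4936: uGCUUUGUggcuuugcuggua
mir-5549: cUUGUGAAauuaacgugagu
mir-8192: cGGUCGAGcgagucucagucggc
mir-86: uAAGUGAAugcuuugccacaguc
mir-34: aGGCAGUGugguuagcugguug
lin-4: uCCCUGAGaccucaaguguga

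The deposited lists give, for each call, a summit and the authors' signal value. The lists of replicate 1, of replicate 2 and of both pooled held 30000 calls each, and the optimal list held 665, which were the 665 strongest of the pooled list. The median signal of a call was 36.6 in replicate 1, 33.7 in replicate 2 and 64.2 in the pooled list, so values compare within a list and not between lists. The depth of the libraries is unknown, and with calls in place of counts no test across samples could be made. All shares below are descriptions.

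Read from the strongest call downward, the pooled list reached a growing share of the miRNA genes. An optimal summit lay in the upstream window of 4 miRNA genes, or 1.53%, beside 1.81% of all genes and 1.61% of protein-coding genes. The Wilson 95% interval of the 1.53% ran from 0.598% to 3.87% and covers both backgrounds. Within 200 bp of the gene body the count was 3 (1.15%), beside 1.89% and 2.27%. The strongest calls were therefore about as frequent at miRNA genes as elsewhere in the annotation.

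Further down the pooled list the shares differed more. Among the 2000 strongest pooled calls, 15 miRNA genes (5.75%, Wilson 95% interval 3.51% to 9.26%) had a summit in the window, against 3.71% of all genes and 3.65% of protein-coding genes, both within that interval. Among the 5000 strongest the count was 40 (15.3%, interval 11.5% to 20.2%), against 6.88% and 7.19%. Any pooled call was found at 118 miRNA genes (45.2%, Wilson 95% interval 39.3% to 51.3%), against 26.3% and 31.6%. These 118 genes rested on 99 separate summits, since neighbouring hairpins shared calls, and the 40 genes on 30. The 209 miRNA genes with no close neighbour gave 27 genes (12.9%) among the 5000 strongest calls and 86 (41.1%) in the whole list. The intervals cover counting error only and treat genes as separate, which clusters are not.

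**Figure D1:**
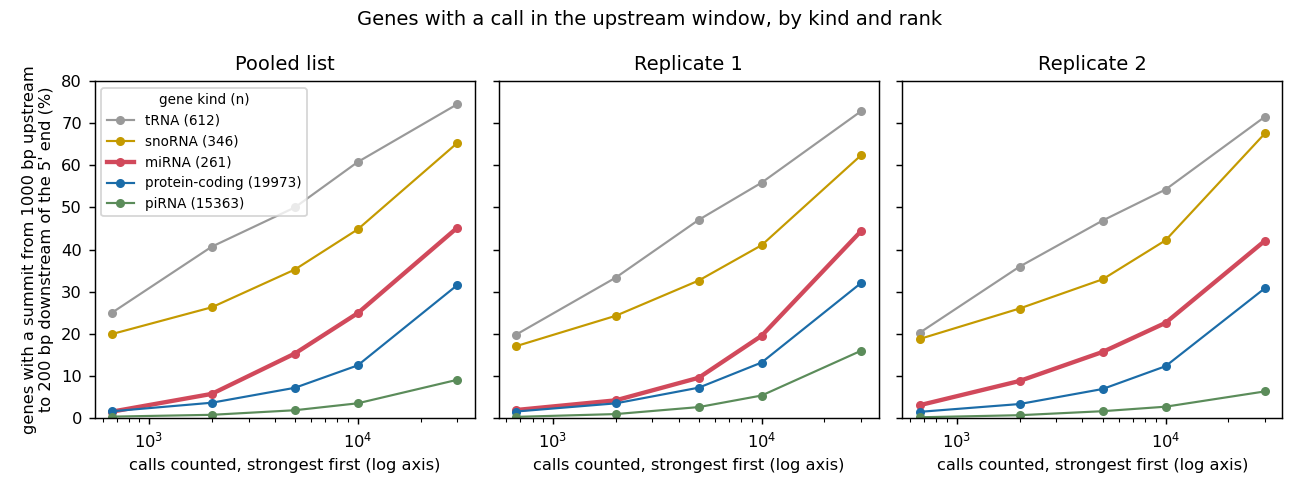
Share of genes (vertical axis, %) with a summit from 1000 bp upstream to 200 bp downstream of the 5′ end, against the number of calls counted from the strongest down (log axis), in the pooled list and in each replicate. The miRNA line starts beside protein-coding genes and lies above them at 10000 and 30000 calls in all 3 lists, below tRNA and snoRNA genes throughout.

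The other short RNA genes gave a scale for these shares. An optimal summit lay in the upstream window of 25% of 612 tRNA genes and 19.9% of 346 snoRNA genes, but of 0.351% of 15363 piRNA genes. Any pooled call was found at 74.5%, 65.3% and 9.10% of them. The miRNA genes lay between snoRNA and piRNA genes at both lengths of the list. Of 129 snRNA genes 8.53% had an optimal summit and 42.6% a pooled call, and of 7764 other noncoding RNA genes 2.96% and 41.6%, so that the 45.2% of miRNA genes over the whole list was near that of these kinds. Among the 5000 strongest pooled calls, 20.155% of snRNA genes and 12.02% of other noncoding RNA genes had one. Both lie within the interval of the 15.3% of miRNA genes, 11.5% to 20.2%. At that depth tRNA genes had 50%, snoRNA genes 35.3% and piRNA genes 1.87%. The 15363 piRNA genes are counted in the 6.88% of all genes. A share above that of all genes was thus not particular to miRNA genes. Of the 118 miRNA genes with a pooled call, 2 had the summit 200 bp or less from a gene for a tRNA, snoRNA or snRNA. The median pooled signal at the 118 genes was 75.5, beside 68.6 over all genes with a call and 67.0 over protein-coding ones.

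The strongest call at a miRNA gene lay on mir-52, a broadly expressed member of the mir-51 family, whose hairpin is at chrIV:14034008-14034107 on the plus strand. It ranked 124 in the pooled list with a signal of 217, 166 in replicate 1 with 108 and 127 in replicate 2 with 109. Both replicates thus placed it far above their median call. The pooled summit fell 51 bp inside the gene, between the mature arms, the summit of replicate 2 fell 52 bp inside and that of replicate 1 lay 17 bp upstream. No coding gene had its 5′ end closer than 9721 bp, although 4 annotated noncoding RNA genes held the same summit in their windows. The sequence around the pooled summit shows how the call sits on the hairpin itself. It covers chrIV:14034009-14034109 (WBcel235, plus strand), with both mature arms in capitals.
mir-52 summit: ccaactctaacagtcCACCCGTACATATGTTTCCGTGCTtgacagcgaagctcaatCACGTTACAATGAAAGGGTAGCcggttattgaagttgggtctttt

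The intronic gene mir-2214, on the plus strand at chrIII:7278715-7278778 within B0361.11, had summits at nearly the same place in all 3 lists. It ranked 180 in the pooled list (signal 195), 271 in replicate 1 (95.9) and 210 in replicate 2 (95.1). The 3 summits lay 7, 8 and 17 bp upstream of the hairpin. The nearest coding 5′ end, that of the host, was 1109 bp away. The sequence centred on the pooled summit, chrIII:7278658-7278758, holds the 5′ mature arm and the first bases of the 3′ arm, in capitals.
mir-2214 summit: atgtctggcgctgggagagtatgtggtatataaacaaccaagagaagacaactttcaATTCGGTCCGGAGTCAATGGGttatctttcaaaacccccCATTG

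For mir-4936, an intergenic gene on the plus strand at chrIII:3249151-3249260, the replicates differed. Its call ranked 562 in the pooled list (signal 142) and 173 in replicate 1 (107), with summits 66 and 53 bp inside the gene. In replicate 2 no call lay in the upstream window, and the strongest one within 200 bp of the gene body, 202 bp downstream of the 5′ end, ranked 9972 with a signal of 38.5. It lay 149 bp from the summit of replicate 1, so that a call was near the hairpin in both replicates but weak in replicate 2. The summit also lay in the upstream window of nduf-9, which encodes a subunit of respiratory complex I and whose 5′ end was 642 bp off. The sequence at the summit, chrIII:3249167-3249267, carries the mature strand in capitals.
mir-4936 summit: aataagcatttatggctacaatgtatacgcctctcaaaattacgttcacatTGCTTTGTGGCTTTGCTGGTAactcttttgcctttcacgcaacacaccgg

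The fourth gene with an optimal summit in its window was mir-354, which overlaps an exon of rps-20, a gene for a ribosomal protein of the small subunit. Its call ranked 186 in the pooled list (signal 192), 390 in replicate 1 (86.8) and 146 in replicate 2 (105), and the summits lay 848, 845 and 839 bp upstream. This was the far end of the window. The pooled summit was 161 bp from the 5′ end of ekl-4 and in the windows of both ekl-4 and rps-20, so that the miRNA gene and the coding genes cannot be told apart as its neighbour.

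Support in both replicates was near the background share at the strong end. Taking from each replicate as many of its strongest calls as the optimal list holds, 3 miRNA genes had calls of both with summits within 200 bp, namely mir-52, mir-2214 and mir-354 (1.15%, beside 0.994% of all genes and 0.951% of coding genes). Among the 2000 strongest of each replicate there was 1 more, mir-5549, which made 4 (1.53%, beside 1.81% and 1.69%). The intergenic gene mir-5549 ranked 971 in the pooled list (signal 125), 1900 in replicate 1 (61.0) and 1757 in replicate 2 (57.9), with the pooled summit 10 bp upstream. That summit was 158 bp from the 5′ end of rfc-4, a clamp loader subunit in DNA replication, and also in the window of eef-1A.1, a translation elongation factor.

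Each replicate alone named other genes. Replicate 1 gave 5 miRNA genes at the depth of the optimal list (1.92%, beside 1.63% and 1.56%), the 3 above with mir-4936 and mir-71. Replicate 2 gave 8 (3.07%, beside 1.62% and 1.49%), the 3 above with mir-1, mir-51, mir-86, mir-8211 and mir-241. Of these, mir-86 and mir-8211 share 1 call. Apart from the genes supported by both, these sets had no gene in common. Over all genes, 764 had such a call of replicate 1, 760 of replicate 2 and 466 of both with summits within 200 bp, so calls of 1 replicate alone were frequent there too. By the authors' q-values at or below 0.05, the pooled list held calls at the 4 genes with an optimal summit (1.53%, beside 1.64% of all and 1.5% of coding genes). The same cutoff gave 5 genes in replicate 1 (1.92%, beside 1.35% and 1.3%) and 11 in replicate 2 (4.21%, beside 1.7% and 1.56%). Among the 11, mir-54, mir-55 and mir-56 lay on 1 shared call, and mir-86 and mir-8211 on another. Genes named in these 2 sets beyond the rule for naming were chosen after their values were seen.

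**Figure D2:**
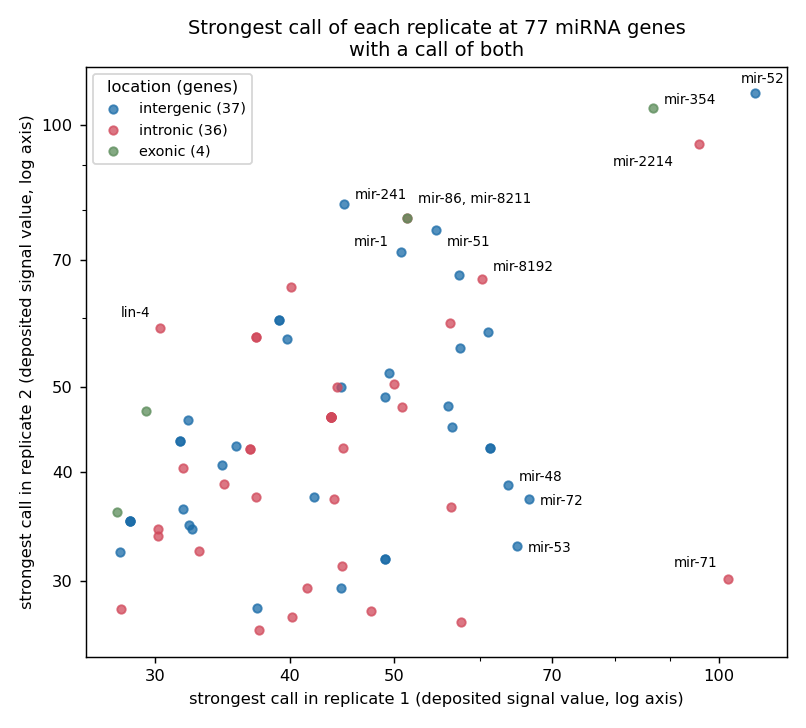
Signal value of the strongest call in the upstream window in replicate 1 (horizontal, log axis) and replicate 2 (vertical, log axis) for the 77 miRNA genes with a call of both, coloured by location. Of the genes labelled, mir-52, mir-2214 and mir-354 lie high in both, whereas mir-71 reaches 102 in replicate 1 and 30.1 in replicate 2.

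Over the whole lists, 116 miRNA genes (44.4%) had an upstream call of replicate 1, beside 28.6% of all genes and 32.1% of coding genes. For replicate 2 it was 110 (42.1%), beside 25.05% and 30.9%, and 77 miRNA genes had both. A call of replicate 1 alone stood at 39 genes, of replicate 2 alone at 33, and 107 genes had none in any list. Calls of both with summits within 200 bp stood at 69 genes (26.4%). If the weaker of the shared calls also had to rank within 10000, 26 genes were left, and within 5000, 13. The share of all genes with shared calls was not counted at these lengths, so these counts have no background beside them. Across the 77 genes the strongest signals of the replicates had a Spearman rho of 0.341 and a Pearson r of 0.517, and across the 57 whose strongest summits lay within 200 bp they had 0.440 and 0.701. These correlations run across genes, some of which share a call, and genes are not replicates.

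Over the whole pooled list, intronic genes had a call more often than intergenic ones. At the top of the list the counts were too small to compare. Any pooled call stood at 56 of 97 intronic genes (57.7%), 54 of 152 intergenic genes (35.5%) and 8 of 12 exonic genes (66.7%). Of all genes 26.3% had one, and of protein-coding genes 31.6%. Among the 5000 strongest, the counts were 20 (20.6%), 17 (11.2%) and 3 (25%), beside 6.88% of all genes. Among the 2000 strongest, they were 5 (5.15%), 8 (5.26%) and 2 (16.7%), beside 3.71% of all genes. With an optimal summit they were 1 (1.03%), 2 (1.32%) and 1 (8.33%), beside 1.81%. Where a call was present, the median pooled signal was 78.5 at intronic and 75.3 at intergenic genes.

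Part of the intronic count came from clusters whose genes share a call. Genes on the opposite strand to their host had a pooled call in 19 of 30 cases (63.3%), with a median signal of 82.4, and 9 of them ranked within 5000. The 7 genes mir-35 to mir-41, which share 1 call, were among these 9. So were mir-357 and mir-358, which share another call, of rank 3794 (signal 93.2). In genes on the strand of the host, 37 of 67 had a call (55.2%), with a median of 69.4, and 11 ranked within 5000. Counted by gene, the median was thus above the intergenic 75.3 on the opposite strand and below it on the host's strand. The opposite-strand median counts the 1 call at mir-35 to mir-41 7 times. It also counts repeatedly the call shared by mir-357 and mir-358 and that shared by mir-54 to mir-56 (signal 81.4). These medians thus compare genes and not separate calls. Medians over separate calls were not computed, so the order of the classes may rest on the clusters. Calls of both replicates within 200 bp stood at 32 intronic genes (33.0%), 33 intergenic genes (21.7%) and 4 exonic genes (33.3%), and with the weaker rank within 5000 at 6, 5 and 2.

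**Figure D3:**
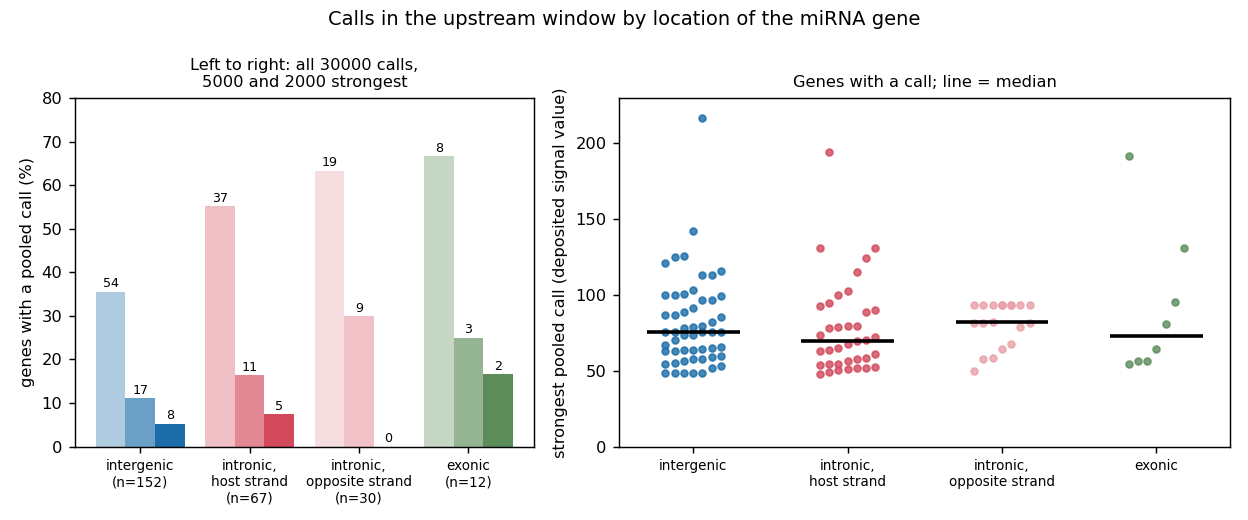
Left, share of miRNA genes (%) with a pooled call in the upstream window in each location class, for all 30000 calls and for the 5000 and 2000 strongest, with gene counts above the bars. Right, signal value of the strongest pooled call at each gene with one, with the class median as a line: 75.3 for intergenic, 69.4 for host-strand intronic and 82.4 for opposite-strand intronic genes.

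The window itself lay mostly upstream, with its midpoint 400 bp upstream of the 5′ end. Of the 118 genes with a pooled call, 53 had its summit within 200 bp of the 5′ end, 34 had it more than 500 bp upstream, and the median position was 243 bp upstream. The median was 148 bp upstream at intergenic genes, and more distant at intronic ones (312 bp). A summit inside the gene occurred at 11 genes (9.32%), for a gene that at the median length fills 7.91% of the 1201 bp window. Among the 15 genes within the 2000 strongest calls it occurred at 4, namely mir-52, mir-4936, mir-71 and mir-34. The summit also lay in the upstream window of a protein-coding gene at 23 of the 118 genes (19.5%), at 12 of 54 intergenic, 8 of 56 intronic and 3 of 8 exonic ones.

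**Figure D4:**
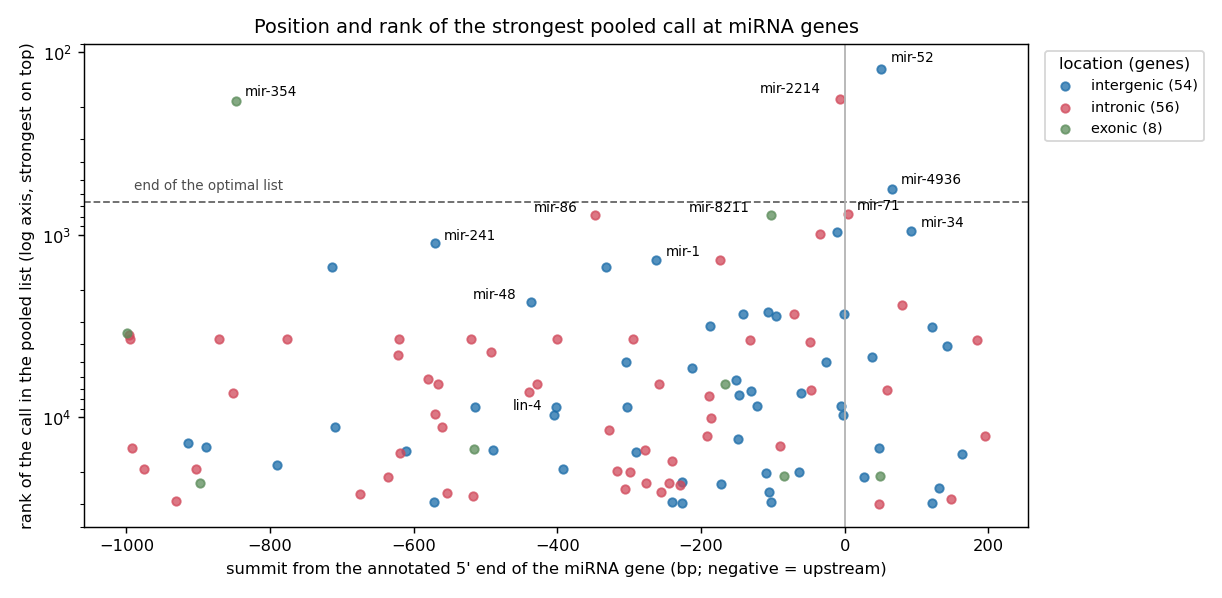
Position of the strongest pooled summit relative to the annotated 5′ end of each miRNA gene (horizontal, bp, negative upstream) against its rank in the pooled list (vertical, log axis, strongest on top), for the 118 genes with a call. Of the 4 genes above the end of the optimal list, 3 have the summit within 66 bp of the 5′ end and mir-354 has it 848 bp upstream.

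Several intronic genes outside the optimal list stood next to strong calls, and these were chosen after their values were seen. The lifespan and stress gene mir-71, in an intron of ppfr-1, ranked 766 in the pooled list (signal 131, summit 4 bp inside the gene) and 205 in replicate 1. In replicate 2 its strongest call in the window ranked 20158, 848 bp upstream, and the strongest one within 200 bp of the gene body ranked 22598, 182 bp from the summit of replicate 1. For mir-8192, in an intron of flcn-1, the replicates placed the summit at the same base to within 1 bp, 36 and 35 bp upstream. It ranked 994 in the pooled list, 2024 in replicate 1 (signal 60.2) and 922 in replicate 2 (66.7). The mirtron mir-62, whose hairpin is released by splicing from ugt-50, ranked 2713 (100.1), 4521 (50.8) and 4414 (47.5), with the pooled summit 70 bp upstream.

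Among intergenic genes chosen in the same way, mir-34, the worm member of a family tied to stress responses, ranked 952 in the pooled list (signal 126) with its summit 93 bp into the gene. Replicate 2 ranked it 1908. In replicate 1 the strongest call in the window, 18 bp inside the gene, ranked 11553, and a call of rank 417 (signal 85.5) lay 219 bp downstream of the 5′ end, past the edge of the window. The muscle gene mir-1 ranked 1370 (116), 4590 in replicate 1 and 652 in replicate 2. The divergent pair mir-239.1 and mir-239.2 shared 1 call between them, of rank 1504 (113) in the pooled list, 1860 in replicate 1 and 6888 in replicate 2. They share the seed UUGUACU with mir-238 (rank 3180). The 3 genes found with this seed had a pooled call within the 5000 strongest, where 15.3% of miRNA genes and 6.88% of all genes had one. They are not 3 separate calls, since mir-239.1 and mir-239.2 share theirs. Of the 6 genes with the seed GAGAUCA, 0 had a call within the 5000 strongest. Both seeds were picked with the values known, and a link between seed and call was not tested.

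The let-7 family, which drives the later larval transitions, had a pooled call at 3 of its 7 genes, all 3 within the 5000 strongest and none with an optimal summit. Within the 5000 strongest, 15.3% of miRNA genes and 6.88% of all genes had a call. The strongest of the family was mir-241, of rank 1113 (signal 121) with a summit 571 bp upstream. Replicate 2 placed the same summit at rank 401 (81.1), whereas the strongest call of replicate 1 was another one, 75 bp inside the gene, of rank 7530 (44.9). Its neighbour mir-48 went the other way, with rank 2345 in the pooled list (103), 1508 in replicate 1 and 9853 in replicate 2. At mir-84 the ranks were close, at 2650 (100.6), 2545 and 2149. The founding gene let-7 had no call in the upstream window in any list. Its annotated gene is 1732 bp long and starts 1066 bp before the 5′ arm of the hairpin, and the only pooled call near its body (rank 17257, signal 61.1) lay 369 bp before that arm.

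The other founding genes were weak. lin-4, which ends the first larval programme through lin-14 and lies in an intron of F59G1.4, ranked 7326 in the pooled list (signal 79.1) with its summit 440 bp upstream. The replicates were far apart here, with rank 24554 (30.3) in replicate 1 and 1663 (58.6) in replicate 2. Its relative mir-237 had no call. For lsy-6, 1 call of replicate 1 was found, of rank 28638 (28.2) with its summit 195 bp downstream of the 5′ end, and none in replicate 2 or the pooled list.

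**Figure D5:**
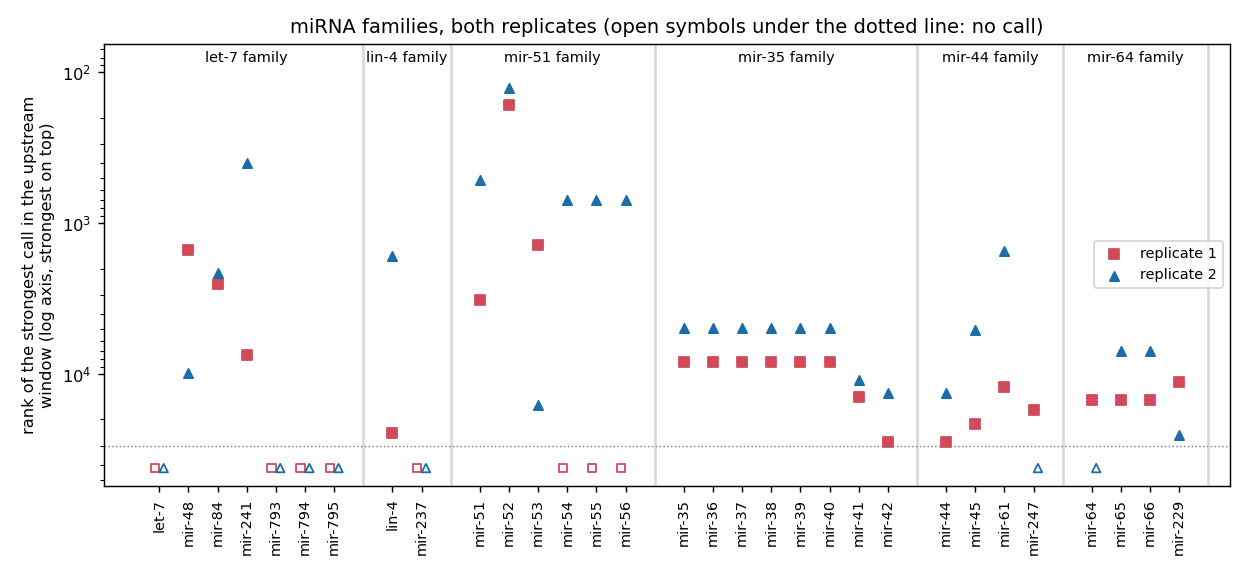
Rank of the strongest call in the upstream window (log axis, strongest on top) for each member of 6 miRNA families, in replicate 1 (squares) and replicate 2 (triangles), with open symbols for no call. In the mir-51 family the symbols of mir-52 lie together at ranks 166 and 127, and mir-54 to mir-56 have a call of replicate 2 alone.

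In the mir-51 family all 6 genes had a pooled call and 3 ranked within 5000, where 15.3% of miRNA genes and 6.88% of all genes did. Within the family mir-52 stood apart. Next came mir-51, of pooled rank 2783 with a summit 95 bp upstream. Replicate 2 had rank 516 at nearly the same place, 98 bp upstream, whereas the strongest call of replicate 1 was another one, 662 bp upstream, of rank 3248. At mir-53 the pooled summit (rank 3228) and that of replicate 2 (16137) lay 121 and 141 bp downstream of the 5′ end, and the strongest call of replicate 1 (1386) lay 150 bp upstream. The cluster of mir-54, mir-55 and mir-56 had 1 call, of pooled rank 6573 and of rank 702 in replicate 2, without any in replicate 1. The mir-35 family, which is needed for embryogenesis, had a pooled call at all 8 genes. For mir-35 to mir-41 this was 1 call, of rank 3757 (93.4), which lay 295 bp upstream of mir-35. At mir-35 it had rank 8299 (43.7) in replicate 1 and 4957 (46.2) in replicate 2.

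The remaining families had fewer calls. In the bantam-related mir-58 family, 3 of the 6 genes found had a pooled call, led by the abundant miRNA gene mir-58.1, in an intron of Y67D8A.2, with rank 1373 (signal 115.5), 2826 in replicate 1 (56.3) and 1573 in replicate 2 (59.3). In the mir-44 family all 4 genes had one, led by mir-61, which acts in vulval fate choice, with rank 2718 (100.1), 12276 (39.1) and 1524 (59.7). In the mir-64 family 3 of 4 had one, led by mir-65 with rank 7155. Its summit lay 59 bp inside the gene and that of replicate 2 (rank 7018) 60 bp inside, whereas the strongest call of replicate 1 (14847) was another one, 589 bp upstream. Within 200 bp of the body of mir-65, however, the strongest summits of the replicates lay 3 bp apart, so replicate 1 had a call there too. These family counts are small, and 26.3% of all genes, 31.6% of protein-coding genes and 45.2% of miRNA genes had a pooled call. Within rank 5000 the shares were 6.88%, 7.19% and 15.3%. Of 11 genes conserved across animals, 7 had a pooled call and 4 ranked within 5000, led by mir-71. That gene ranked 205 in replicate 1 but 20158 in replicate 2.

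Clusters were defined as genes on 1 strand at most 1000 bp apart, which gave 18 clusters with 52 genes. No cluster had an optimal summit at any member, where 1.81% of all genes had one, and the same held at 10000 bp, with 29 clusters. The strongest was the pair mir-86 and mir-8211 within Y56A3A.7, of pooled rank 783 (signal 131), 4327 in replicate 1 (51.4) and 445 in replicate 2 (78.3). Its summit lay 102 bp upstream of mir-8211 and 348 bp upstream of mir-86. Then followed mir-250 with mir-61 (2718), mir-35 to mir-41 (3757) and mir-357 with mir-358 (3794). In 4 clusters no member had a pooled call. Clustered genes had one in 32 of 52 cases (61.5%, beside 26.3% of all genes and 31.6% of protein-coding genes), single genes in 86 of 209 (41.1%). The 32 genes rested on 15 separate summits.

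The base composition at the summits was compared with that of other calls. In windows reaching 50 bp to each side of the 99 pooled summits, the median GC content was 45.5%, beside 42.6% over all pooled calls. In the 30 windows within rank 5000 it was 47.5%, beside 45.5% over all 5000 calls. On either strand the letters GAGAGA stood in 15.2% of the 99 windows, beside 8.17% of all pooled and 12.6% of optimal ones. CANNTG stood in 36.4%, beside 37.3% and 35.6%, and TTTTTTTT in 3.03%, beside 6.48% and 4.21%. The tRNA B box, an internal promoter element of tRNA genes, was in 0 of the 99 windows, beside 0.72% and 6.92%. In the 30 windows within rank 5000, the values beside those of all 5000 calls were 10% and 10.7% for GAGAGA, 26.7% and 37.3% for CANNTG, 0% and 5.12% for TTTTTTTT, and 0% and 2.08% for the B box. The higher share of GAGAGA over the whole list was thus not seen among the stronger calls.

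Genes for the proteins of the miRNA pathway gave 1 optimal summit among the 18 found. It was at nhl-2, which encodes a TRIM-NHL cofactor of the miRNA silencing complex, with pooled rank 40 (signal 290.3), 71 in replicate 1 and 22 in replicate 2, 849 bp upstream of the 5′ end. These genes are coding genes, of which 1.61% had an optimal summit, 31.6% a pooled call and 7.19% one within rank 5000, and the small counts here cannot be set apart from those shares. A pooled call stood at 7 of the 18, nhl-2 being the only one within rank 5000, and among the others were xrn-2 (7052), which degrades mature miRNAs, and dcr-1 (29668), the Dicer gene. Drosha (drsh-1), its partner pash-1 and the Argonaute genes alg-1 and alg-2 had none in the pooled list. Of 10 known targets, against the same shares of coding genes, 5 had a pooled call, none within 5000, with lin-14 the strongest (7656), then hbl-1 (14251) and daf-12 (17567).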

How the data were processed

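Chromatin of 2 biological replicates of 1 group was analysed from interval lists, whose build was ce11 per the labels. Each list, as deposited by the authors, holds a signal value, a −log10 q-value and a summit position per call. The caller, its version and the threshold of the optimal list are not given in the sources used here. A control entered the calling, per the deposited text files, and is not analysed here. Calls were ranked by signal within each list. Genes came from Ensembl release 115 (WBcel235, the same assembly), and all 261 matched a RefSeq symbol. The strongest summit in the window from 1000 bp upstream to 200 bp downstream of the 5′ end, and within 200 bp of the body, was taken with Python 3.11.15, pandas 2.3.3, NumPy 2.4.6 and SciPy 1.17.1. The window code was tested on simulated data. Mature strands were read at RefSeq coordinates. No test was made, and shares carry Wilson 95% intervals. The text names genes with an optimal summit, genes with a call among the 2000 strongest of both replicates within 200 bp, let-7, lin-4, lsy-6 and the strongest member of each family. Other window sizes, overlap rules, cluster distances and each replicate alone were tried. The members and lists were chosen with earlier results of these data known. Of the listed genes, mir-1834 and ntl-1 found no match in the annotation by that name.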

Additional observations from a re-analysis of the deposited data

How the results depend on the processing

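The count of 4 miRNA genes with an optimal summit upstream was 3 with a 500 bp reach and 6 with 2000 bp. It was 2 without summits in coding upstream windows, which left out mir-354 and mir-4936. With each replicate's own strongest calls it was 5 to 8 upstream and 5 to 5 within 200 bp of the body. The replicate 2 list alone gave the 8. The intronic count of 1 was 2 with 2000 bp and 2 to 2 in the replicates alone. The intergenic count of 2 was 1 in the stronger part of the optimal list (332 calls), 1 without summits in coding windows and 2 to 4 in the replicates alone. The 118 genes with a pooled call were 40 when the 5000 strongest calls were used. The intronic median signal of 78.5 was 69.4 with 500 bp, and so below the intergenic 75.5 at that reach. In the replicates alone, on their own signal scale, the medians were 40.1 to 42.4 for intronic and 37.4 to 39.0 for intergenic genes. Of the 50 alternative values of the summary results, 34 stayed close. For counts this meant within 1.5 times, and for medians within the standard deviation of the replicate medians put on the pooled scale. The medians of single replicates were compared unscaled with the pooled ones, so they could only count as moved. No paired analysis was possible because there is 1 group and no comparison between groups. Signal values without read counts leave the precision of a single call unknown.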

Other observations

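The share of miRNA genes with a pooled call in the upstream window varied between chromosomes, and so did the share of all genes. On chromosome III it was 18 of 27 miRNA genes (66.7%), beside 41.6% of all genes there, and on II 27 of 49 (55.1%), beside 34.9%. On X it was 26 of 74 (35.1%), beside 35.1% of all genes there, and on V 10 of 28 (35.7%), beside 30.1%. On I it was 14 of 33 (42.4%), beside 38.9%. On IV it was 23 of 50 (46%), beside 14.2% of all genes and 29.0% of protein-coding genes there. Replicate 1 gave 70.4% on III (all genes 40.6%) and 31.1% on X (35.5%), and replicate 2 gave 63.0% (40.9%) and 31.1% (34.8%). With the 5000 strongest pooled calls the shares were 25.9% on III (all genes 11.4%) and 8.11% on X (9.76%). The differences were not tested, and neighbouring genes share calls.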
